A study of Homo sapiens with 18 samples.

Results

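The BCL2 family sets the threshold of mitochondrial apoptosis. Pro-survival members bind and restrain the effectors that open the outer mitochondrial membrane. BH3-only proteins, which share just the BH3 motif with the rest of the family, either occupy the pro-survival proteins or activate the effectors. Many of these transcripts carry sites for miRNAs in their 3′ UTR, and Dicer1 is the ribonuclease that cuts miRNA precursors into mature miRNAs, so the family is a natural place to look when Dicer1 is depleted. The genes described here are 10 members taken by name from the deposited table of 58302 genes: the 4 pro-survival genes BCL2, BCL2L1 (BCL-XL), BCL2L2 (BCL-W) and MCL1, the effector BAK1, and the 5 BH3-only genes BCL2L11 (BIM), PMAIP1 (NOXA), BID, BIK and BMF. All 10 were found as single rows and all 10 passed the filter on low values in both siDicer comparisons.

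The libraries were made from TPC1, a papillary thyroid carcinoma cell line with wild-type Dicer1, and from D11, a Dicer1 (+/-) line that the study derived from TPC1 by CRISPR-Cas9 as 1 clone. Cells of each line received no siRNA (NT), 5 nM of a negative control siRNA (NC) or 5 nM of Dicer1 siRNA (siDicer), and RNA was taken on day 4, with 3 libraries in each of the 6 groups and 18 in all. Within a line, NT and NC together form the control group, so each siDicer comparison sets 3 libraries against 6. The D11 groups differ from the TPC1 groups by the Dicer1 allele and also by whatever else sets this clone apart, and these cannot be told apart.

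Values are normalised read counts, reads per gene scaled to a library total of 20 M and rounded up to a whole number. Depth was 11.3 to 23.2 M reads per library, so that 1 read is worth 0.861 to 1.77 in these units and a count of 0 allows a value of up to 2.58 to 5.32, which covers counting error only. For 12 of the 18 samples the title gives another group than the description does, and the descriptions were used. DICER1 followed the descriptions for siDicer against control: it was 255, 395 and 246 in the TPC1 siDicer libraries against 1397 to 2492 in the TPC1 controls, and 297, 451 and 277 in the D11 siDicer libraries against 655 to 1536 in the D11 controls. These levels do not check which controls are NT and which are NC. Results that split NT from NC rest on the descriptions. The log2 fold change of DICER1 was -2.64 (SE 0.21, adjusted p = 0.000337, limma) in TPC1 and -1.77 (SE 0.25, adjusted p = 0.000649, limma) in D11. Of 7 thyroid follicular markers, TG, PAX8 and FOXE1 were at 10 or more in all libraries, whereas TSHR, SLC5A5 and NKX2-1 stayed under 10 in all of them. The 4 leukocyte markers summed to 2 to 26 and the 3 endothelial markers to 2 to 18 per library, and among epithelial markers KRT7, KRT8 and KRT18 were present while EPCAM, KRT19 and CDH1 stayed under 10.

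The seed sequences of the miRNAs whose sites recur in these genes are shown first, because they define the matches counted in each 3′ UTR. A seed is bases 2 to 8 of the mature miRNA, given here in capitals. Sequences are from RefSeq (GRCh38.p14), 5′ to 3′, and miRNAs that share a seed stand together. The miRNAs themselves were not measured in these libraries.
hsa-miR-29a-3p: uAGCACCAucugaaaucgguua
hsa-miR-29b-3p: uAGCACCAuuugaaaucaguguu
hsa-miR-34a-5p: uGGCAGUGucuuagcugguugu
hsa-miR-221-3p: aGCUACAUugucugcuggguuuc
hsa-miR-222-3p: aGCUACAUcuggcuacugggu
hsa-miR-16-5p: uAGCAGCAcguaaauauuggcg
hsa-miR-17-5p: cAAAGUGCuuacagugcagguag
hsa-miR-92a-3p: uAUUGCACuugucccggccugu
hsa-miR-181a-5p: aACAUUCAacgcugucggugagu
hsa-miR-30a-5p: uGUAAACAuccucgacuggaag

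In the 3′ UTR, a 7mer-m8 match is the reverse complement of the seed, and an 8mer is that match followed by A. The longest annotated 3′ UTR of a coding transcript (GENCODE v44, GRCh38) was searched on its own strand for 10 seed families. BMF, whose product is a BH3-only protein tied to the cytoskeleton, has a 3′ UTR of 3897 bases with 6 matches for 4 families. They include an 8mer for miR-29 (chr15:40090395-40090416), for miR-34 (chr15:40091025-40091046) and for the miR-221 family (chr15:40088096-40088117) and a 7mer-m8 for miR-15/16 (chr15:40090953-40090974), all on the minus strand, with the match in capitals.
BMF miR-29 site: agaaaagacaacatTGGTGCTA
BMF miR-34 site: ctgaggtacagagcCACTGCCA
BMF miR-221 site: gagacccagtgagaATGTAGCA
BMF miR-15/16 site: gccagtcagcatgtTGCTGCTg

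BCL2L11, which encodes the BH3-only activator BIM, has the 3′ UTR with the most 8mer families among the 10 genes: 7 matches for 6 families over 4213 bases. An 8mer is present for miR-181 (chr2:111164425-111164446), miR-30 (chr2:111164505-111164526), miR-17 (chr2:111166216-111166237), the miR-221 family (chr2:111168269-111168290) and miR-92/25 (chr2:111168351-111168372), on the plus strand. PMAIP1, in contrast, holds a single 7mer-m8 match, for miR-181 (chr18:59903600-59903621, plus strand), in 1552 bases.
BCL2L11 miR-181 site: atggaagtttgttgTGAATGTA
BCL2L11 miR-30 site: ttgtgtaagaatggTGTTTACA
BCL2L11 miR-17 site: gtctcctgactagaGCACTTTA
BCL2L11 miR-221 site: ctaggacccagcgtATGTAGCA
BCL2L11 miR-92/25 site: ttgccactttacttGTGCAATA
PMAIP1 miR-181 site: aacttgataagataTGAATGTt

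These matches are letters in a sequence, not shown sites of action, and long UTRs hold more of them. Among 1600 tested genes with a 3′ UTR 0.8 to 1.2 times as long as that of BMF, a match was held for miR-29 by 29.6%, for miR-34 by 26.9%, for the miR-221 family by 19.2% and for miR-15/16 by 43.8%, and such a gene held matches for a median of 3 of the 10 families. An 8mer was held for miR-29 by 5.69% of these genes, for miR-34 by 8.44% and for the miR-221 family by 8.69%. Among 1469 genes with a UTR of like length to that of BCL2L11, the median was also 3 families, and 8mers were held for miR-181 by 14.5%, for miR-30 by 17.97%, for miR-17 by 10.8%, for the miR-221 family by 9.53% and for miR-92/25 by 6.67%. A miR-181 match was held by 18.6% of 1890 genes with a UTR of like length to that of PMAIP1.

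The pro-survival genes hold matches as well. BCL2 had an 8mer for miR-15/16 and for miR-181 and 7 matches in all, MCL1 an 8mer for miR-17, miR-29 and miR-92/25, and BCL2L1 an 8mer for let-7, while BCL2L2 had 4 matches for miR-15/16, none of them an 8mer. Matches were thus present on both sides of the family. BAK1 had an 8mer for miR-29, BID an 8mer for miR-30, and BIK, with a 3′ UTR of 407 bases, 7mer-m8 matches for miR-15/16 and miR-34. None of the 10 genes held a match for miR-21, against 10.5% of all tested genes.

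**Figure D1:**
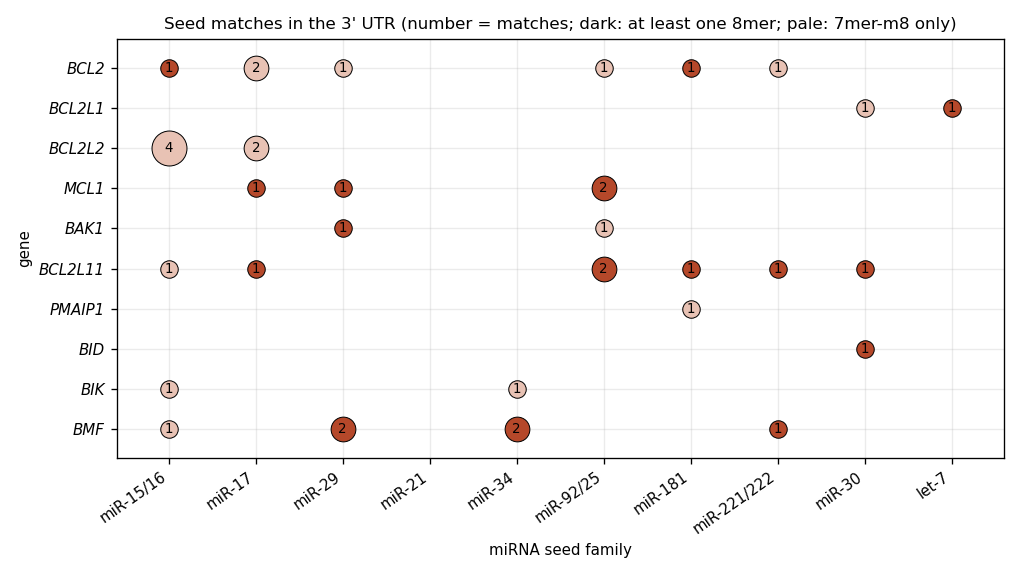
Seed matches in the 3′ UTR of the 10 BCL2 family genes (rows) for 10 miRNA seed families (columns). The number and size of a circle give the number of matches, and dark circles hold at least 1 8mer. BCL2 and BCL2L11 have matches for 6 families each, PMAIP1 and BID for 1 each.

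To compare levels between genes, the normalised read count was divided by the length of merged exons in kilobases (kb; GENCODE v44). MCL1, a short-lived pro-survival protein's gene, led in both lines with 1146 ± 73 per kb (SD, n = 6) in TPC1 controls and 1205 ± 94 in D11 controls, followed by BCL2L1 with 976 ± 113 and 1156 ± 112. The ranges of these 2 genes overlapped in both lines. BAK1 came next with 532 ± 86 in TPC1 and 518 ± 73 in D11, and its range overlapped that of PMAIP1, at 479 ± 74 and 457 ± 73. BCL2L2 (215 ± 41 and 195 ± 11 per kb) and BID (160 ± 17 and 188 ± 28 per kb) overlapped each other in both lines.

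The remaining 4 genes had lower levels. BCL2L11 was at 29.5 ± 6.4 per kb in TPC1 and 32.9 ± 5.4 in D11, and its range lay above that of BCL2, at 18.1 ± 2.4 and 17.9 ± 3.2. BIK followed with 9.29 ± 4.3 and 8.76 ± 2.8, overlapping BCL2 in TPC1 but not in D11. BMF was the lowest member in both lines, at 2.51 ± 1.4 per kb in TPC1 and 1.77 ± 1.0 in D11, with no overlap with BIK. The order of the 10 control means was the same in the 2 lines.

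**Figure D2:**
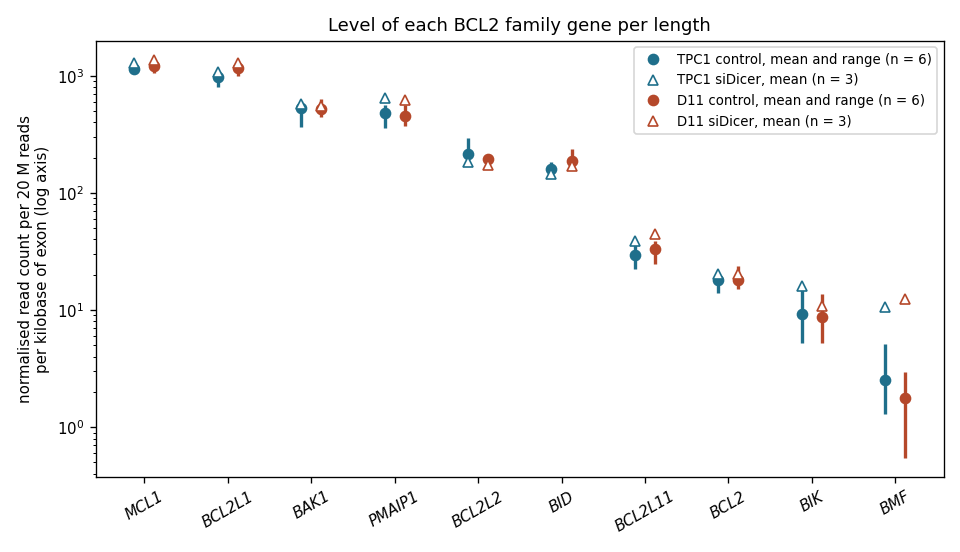
Normalised read count per 20 M reads per kilobase of exon (log axis) for the 10 genes, ordered by the TPC1 control mean. Circles and bars give the mean and range of the 6 control libraries and triangles the mean of the 3 siDicer libraries; BMF rises from 2.51 to 10.5 per kb in TPC1 and from 1.77 to 12.3 per kb in D11.

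After transfection with Dicer1 siRNA, 1 of the 10 genes, BMF, was called higher in each line. In TPC1, 1 of 10 was called higher and 0 lower, where 7.38% of the 18475 tested genes were called, 3.22% higher and 4.16% lower. In D11, 1 of 10 was called higher and 0 lower, where 12% of the 18413 tested genes were called, 5.26% higher and 6.75% lower. A call required an adjusted p under 0.05 (limma on log2(value + 1), Benjamini-Hochberg adjustment) together with a change of 1.5-fold or more in either direction. The median log2 fold change of the 10 genes was 0.17 in TPC1 and 0.18 in D11, beside -0.04 in both lines over all tested genes, and 8 of the 10 estimates were above 0 in each line, those of BCL2L2 and BID being the exceptions.

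**Figure D3:**
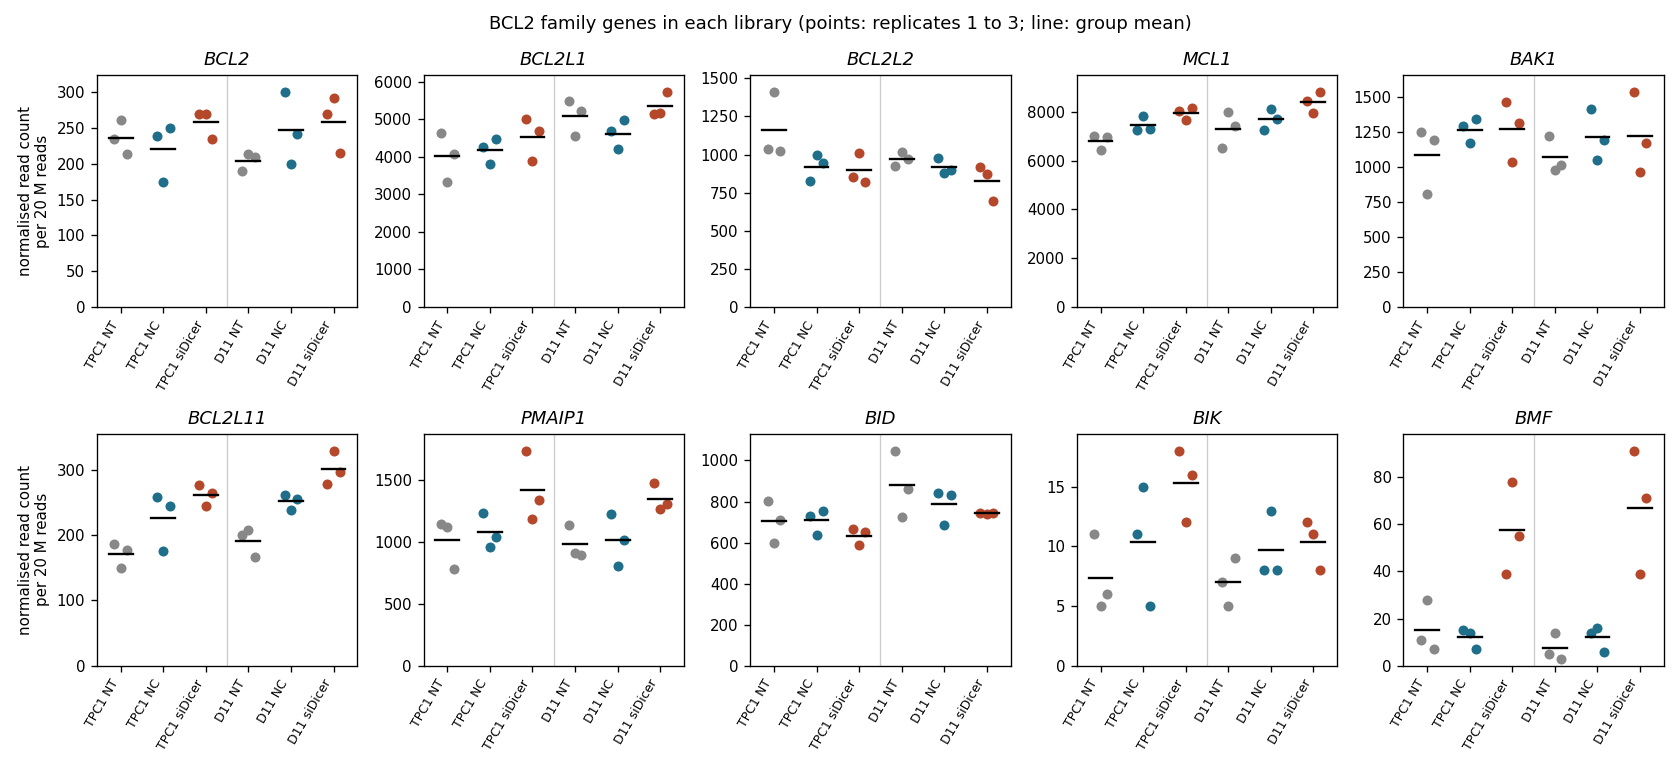
Normalised read count per 20 M reads of the 10 genes in every library, with points for replicates 1 to 3 and a line for the group mean, on axes that start at 0. BMF is at 39 to 78 in TPC1 siDicer and 39 to 91 in D11 siDicer, above every control library, while the groups overlap for most other members.

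BMF was at 11, 28 and 7 in the TPC1 NT libraries and at 15, 14 and 7 in the NC libraries, and at 39, 78 and 55 after siDicer. In D11 it was at 5, 14 and 3 in the NT libraries, at 14, 16 and 6 in the NC libraries and at 91, 39 and 71 after siDicer. Every siDicer library lay above every control library in both lines, as for 7.62% of all tested genes in TPC1 and 11% in D11. The siDicer mean was 4.20 times the control mean in TPC1, with a log2 fold change of 2.09 (SE 0.41, 95% interval 1.19 to 2.98, adjusted p = 0.00913, limma). In D11 it was 6.93 times the control mean, with a log2 fold change of 2.79 (SE 0.48, 95% interval 1.76 to 3.82, adjusted p = 0.00187, limma). The effect in D11 exceeded that in TPC1 by 0.70 (SE 0.67, 95% interval -0.69 to 2.09, adjusted p = 1.00, limma interaction term), a difference within its error. In bulk libraries such as these, a higher level in all cells and a high level in a part of them cannot be told apart.

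The depth behind BMF is low. Its control values stand for 4 to 24 reads per library in TPC1 and 2 to 10 in D11, against 45 to 66 and 26 to 71 after siDicer, and the D11 NT library with 2 reads is under the limit that a count of 0 allows. Without the library TPC1 siDicer replicate 3 the log2 fold change in TPC1 stayed at 2.09 but the adjusted p was 0.0559 (limma), so the call was lost. BMF lies on chromosome 15 (GRCh38, 40087890 to 40108892, minus strand) and overlaps the antisense gene BMF-AS1, and as no source gives the strandedness used in counting, reads of the 2 genes may not have been separated. The same doubt holds for BCL2, BCL2L1, BCL2L2, MCL1, BCL2L11 and BAK1, which also overlap a gene on the other strand. PMAIP1, BID and BIK do not. BCL2, BCL2L2, MCL1 and BID overlap a gene on their own strand.

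BCL2L11 was second to BMF among the members in D11 by size of change. It was at 200, 208 and 167 in the D11 NT libraries, at 262, 239 and 255 in the NC libraries and at 278, 329 and 296 after siDicer. All 3 siDicer libraries lay above all 6 controls, though the NC libraries stood between the NT and siDicer libraries. The log2 fold change was 0.45 (SE 0.15, 95% interval 0.12 to 0.78), and it was not called, as the change was under the fold minimum and the adjusted p was 0.05003 (limma). In TPC1 the NT libraries held 187, 150 and 177, the NC libraries 258, 175 and 245 and the siDicer libraries 276, 244 and 265, and the siDicer and control libraries overlapped. The log2 fold change there was 0.42 (SE 0.17, adjusted p = 0.125, limma).

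For BCL2L11 the call depended on the control. Against the NT libraries alone its log2 fold change was 0.61 in TPC1 (SE 0.15, adjusted p = 0.0475, limma) and 0.65 in D11 (SE 0.15, adjusted p = 0.0115, limma), which would be called in both lines. Against the NC libraries alone it was 0.23 (SE 0.17, adjusted p = 0.408, limma) and 0.25 (SE 0.12, adjusted p = 0.197, limma), which would not. Between the controls themselves, NC exceeded NT by 0.38 in TPC1 (SE 0.19, adjusted p = 0.507, limma) and by 0.40 in D11 (SE 0.15, adjusted p = 0.296, limma).

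PMAIP1, which encodes NOXA, a BH3-only protein that binds MCL1, was at 1140, 909 and 893 in the D11 NT libraries, at 1223, 808 and 1019 in the NC libraries and at 1472, 1262 and 1304 after siDicer. The siDicer libraries again lay above all D11 controls. Its log2 fold change of 0.44 (SE 0.13, 95% interval 0.16 to 0.73, adjusted p = 0.0304, limma) passed the p threshold, as it did for 22.2% of all tested genes, but not the fold minimum. In TPC1, PMAIP1 was at 1146, 1122 and 778 in NT, at 1235, 961 and 1038 in NC and at 1735, 1182 and 1340 after siDicer. The libraries overlapped, since siDicer replicate 2 lay below NC replicate 1, and the log2 fold change of 0.44 (SE 0.16, adjusted p = 0.0847, limma) did not pass.

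BIK, a BH3-only protein of the endoplasmic reticulum, was measured on few reads. In TPC1 it was at 11, 5 and 6 in NT, at 11, 15 and 5 in NC and at 18, 12 and 16 after siDicer, a log2 fold change of 0.82 (SE 0.38, 95% interval -0.01 to 1.65, adjusted p = 0.168, limma). In D11 it was at 7, 5 and 9, at 8, 13 and 8 and at 12, 11 and 8, with a log2 fold change of 0.31 (SE 0.34, 95% interval -0.43 to 1.05, adjusted p = 0.554, limma). The groups overlapped in both lines, and both intervals held 0 as well as changes past the fold minimum.

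BID, which links death receptors to mitochondria once cleaved by caspase 8, was the BH3-only member with a lower estimate. Its D11 siDicer libraries were nearly equal, at 744, 739 and 746, within the control range of 687 to 1047. The log2 fold change was -0.15 in both lines (95% interval -0.39 to 0.09 in TPC1 and -0.42 to 0.12 in D11). Neither passed the test.

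None of the 4 pro-survival genes passed the test in either line. MCL1 was at 7026, 6444 and 6965 in TPC1 NT, at 7252, 7820 and 7278 in NC and at 8015, 7649 and 8168 after siDicer, and its log2 fold change was 0.16 (95% interval -0.0045 to 0.32, adjusted p = 0.175, limma). In D11, MCL1 ranged from 6506 to 8118 in the controls and was 8435, 7936 and 8812 after siDicer, with a log2 fold change of 0.17 (95% interval -0.02 to 0.36, adjusted p = 0.196, limma). In both lines 2 of 3 siDicer libraries lay above all controls.

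BCL2L1 and BCL2 overlapped between groups in both lines. BCL2L1 ranged from 3336 to 4643 in TPC1 controls and from 3878 to 4999 after siDicer, and from 4198 to 5490 and from 5130 to 5724 in D11, with a log2 fold change of 0.14 in each line. BCL2 ranged from 175 to 261 and from 234 to 270 in TPC1, and from 190 to 300 and from 215 to 291 in D11, with log2 fold changes of 0.18 and 0.20. BCL2L2 was the pro-survival gene with a lower estimate. It ranged from 825 to 1410 in TPC1 controls and from 822 to 1011 after siDicer, and from 881 to 1014 and from 696 to 918 in D11, with log2 fold changes of -0.20 (95% interval -0.52 to 0.12) and -0.19 (95% interval -0.42 to 0.03). Its reads can be shared with the readthrough gene BCL2L2-PABPN1 on the same strand, so its value is uncertain.

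The effector BAK1 ranged from 810 to 1341 in TPC1 controls and from 1039 to 1465 after siDicer, and from 981 to 1412 and from 962 to 1536 in D11. Its log2 fold changes of 0.12 (95% interval -0.23 to 0.47) and 0.08 (95% interval -0.25 to 0.41) did not pass, and with the NC libraries alone as control the estimates were -0.00535 in TPC1 and -0.00845 in D11. For all 4 pro-survival genes and BAK1 the 95% intervals lay between -0.52 (BCL2L2 in TPC1) and 0.55 (BCL2 in D11), inside the fold minimum used for a call.

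**Figure D4:**
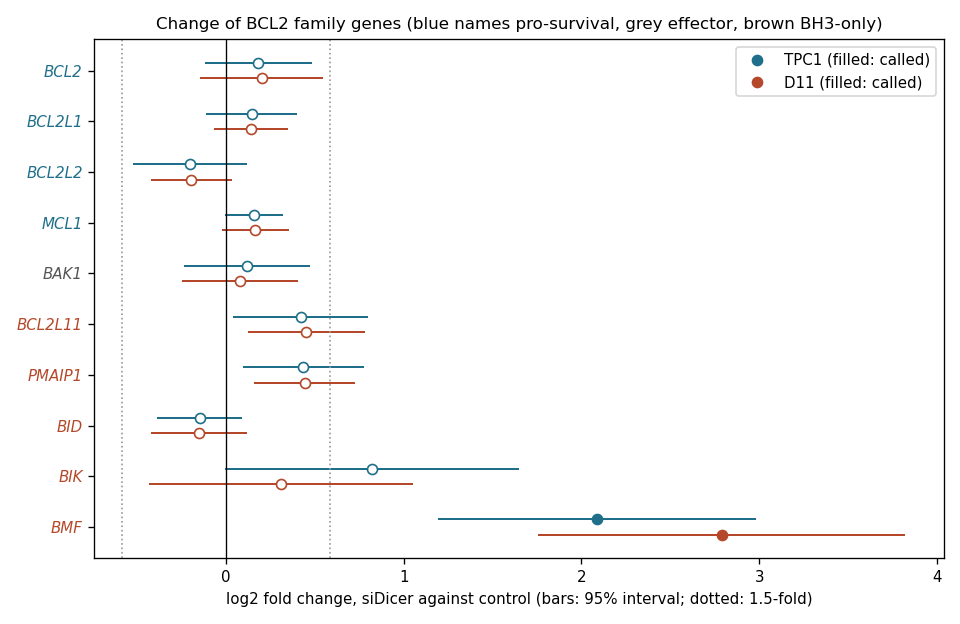
Log2 fold change of the 10 genes, siDicer against control, with 95% intervals, in TPC1 (blue) and D11 (brown). Filled points passed the call and dotted lines mark a 1.5-fold change; BMF at 2.09 and 2.79 stands to the right of all other members.

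The members can also be read as a balance. Pro-survival genes made up 61.5% to 71.0% of the summed per-kb level of the 10 genes over the 18 libraries, as a description of RNA and not of protein. In TPC1 this share was 65.3% to 68.0% in NT, 63.4% to 67.3% in NC and 61.5% to 66.4% after siDicer. In D11 it was 65.5% to 71.0% in NT, 63.5% to 70.4% in NC and 63.4% to 68.5% after siDicer. The ranges of the groups overlapped in both lines. No label pairs the libraries. Between same-numbered D11 libraries the siDicer share minus the NT share was -2.04, -2.48 and -2.37 percentage points. Minus the NC share it was -0.09, -1.94 and 0.43 points. In TPC1 the same differences were -3.75, -0.77 and -3.18 points against NT and -1.85, -0.93 and -0.61 points against NC. These differences are a description, and no test was run on them.

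Between the controls, no member was called. In TPC1, 0 of 10 members differed between NC and NT, where 0.111% of all tested genes did, and in D11 0 of the 9 members tested, where 0.35% did. BIK did not pass the filter on low values in the latter comparison. At an unadjusted p under 0.05, 0 members passed in TPC1 and BCL2L11 alone in D11. The member with the smallest p in TPC1 was BCL2L2, lower in NC with a log2 difference of -0.32 (SE 0.15, adjusted p = 0.479, limma). For BMF the NC minus NT difference was -0.18 (SE 0.53) in TPC1 and 0.77 (SE 0.58, adjusted p = 0.586, limma) in D11. For DICER1 itself the NC minus NT difference was 0.58 in TPC1 (SE 0.12, adjusted p = 0.133, limma) and 0.71 in D11 (SE 0.18, adjusted p = 0.153, limma). With the replicate number as a block the D11 difference in DICER1 passed, at an adjusted p of 0.046 (limma).

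The Dicer1 (+/-) clone and its parental line did not differ for any member past the test in the 12 control libraries, where 1.02% of all tested genes did. The D11 minus TPC1 difference was 0.25 for BCL2L1 (SE 0.09, 95% interval 0.06 to 0.44, adjusted p = 0.333, limma) and 0.23 for BID (SE 0.11, 95% interval 0.01 to 0.46, adjusted p = 0.485, limma), and these 2 were the members with an unadjusted p under 0.05. The difference for BMF was -0.51 (SE 0.42, adjusted p = 0.693, limma). DICER1 was lower in D11 by a log2 difference of -0.68 (SE 0.12, adjusted p = 0.00561, limma), although with either control group alone the call was lost (-0.75, adjusted p = 0.406 for NT and -0.62, adjusted p = 0.107 for NC, limma), and it fell below the fold minimum without D11 NT replicate 1 (-0.58).

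The siDicer effect was set against the line in all 18 libraries, and no member was called for a difference between lines, nor was any of the 19181 tested genes (0%). At an unadjusted p under 0.05, 133 of those genes and 0 of the 10 members passed. The member with the largest difference was BMF, given above, and BIK was next with -0.51 (SE 0.49, adjusted p = 1.00, limma). For the other 8 members the difference between the lines ran from -0.04 for BAK1 to 0.03 for BCL2L11, beside standard errors of 0.11 for MCL1 to 0.23 for BCL2L11.

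The genes whose pattern was most like that of BMF, over 18 libraries and 12508 genes with a mean value of at least 100, were AC068580.3 (ENSG00000235027; Pearson r of log2 values 0.94), the Polycomb ring finger gene PCGF3 (r 0.94) and the poly(A) polymerase gene PAPD4 (r 0.94). Part of this likeness is the group difference they share: in both lines their siDicer libraries lay above their control libraries. Within groups the r values were 0.74, 0.70 and 0.73. The libraries share their depth and replicate number across genes, and the values are a description. AC068580.3 was called higher in both lines (log2 fold change 0.64 in TPC1 and 0.63 in D11), whereas PCGF3 (0.33 and 0.47) and PAPD4 (0.33 and 0.47) did not reach the fold minimum.

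The wider apoptosis genes were described with lists. Each count called stands beside 7.38% of all tested genes called in TPC1 and 12% in D11. Among the other BCL2 family genes, 9 of 13 were tested in TPC1 and none called, and 10 of 13 were tested in D11, with 1 called higher and 1 lower. The median log2 fold changes were -0.03 and -0.14. BBC3 (PUMA), a BH3-only gene, was the gene called higher in D11: it was at 269, 169 and 217 in NT, at 218, 244 and 210 in NC and at 351, 375 and 422 after siDicer, a log2 fold change of 0.80 (SE 0.15, adjusted p = 0.00258, limma). In TPC1 its log2 fold change was 0.73 (SE 0.24, adjusted p = 0.0696, limma), and without siDicer replicate 2 it was 1.02 (adjusted p = 0.0139, limma) and would be called. BCL2L12 was called lower in D11 (-0.63, SE 0.13, adjusted p = 0.00487, limma) and had a log2 fold change of -0.40 in TPC1. The D11 call of BCL2L12 was lost without NT replicate 1 (-0.56) or siDicer replicate 1 (-0.54) and with NC alone as control (-0.55), below the fold minimum. BCL2A1, a pro-survival gene, had estimates of -0.88 in TPC1 and -1.003 in D11 with adjusted p of 0.0509 and 0.0574 (limma). In D11 the replicate block gave 0.0328 (limma), which is a call. The D11 controls already differed for BCL2A1: NC minus NT was -0.82 (SE 0.30), not called, whereas in TPC1 it was -0.08. Its D11 group means were low, 55.3 (NT), 31.7 (NC) and 21 (siDicer). The siDicer and control libraries overlapped in both lines. When libraries were left out in turn, BCL2A1 was called in 2 of 9 fits in each line.

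Downstream of the mitochondria, 2 of 9 caspase and apoptosome genes were called in each line, both lower. CYCS, which encodes cytochrome c, was at 2689 to 4398 in TPC1 controls and at 1286, 1819 and 1267 after siDicer, a log2 fold change of -1.32 (SE 0.16, adjusted p = 0.00108, limma), and in D11 at 3208 to 4778 and at 1299, 1550 and 1168, a log2 fold change of -1.54 (SE 0.13, adjusted p = 4.57e-05, limma). CASP6, an executioner caspase, had log2 fold changes of -1.01 and -1.13 (adjusted p = 0.00341 and 0.000181, limma). Both genes were lower in every siDicer library than in any control library of the same line, as were 9.91% of tested genes in TPC1 and 14.1% in D11. The list medians were -0.17 in TPC1 and -0.01 in D11.

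Of the inhibitors of apoptosis and their antagonists, 0 of 7 tested were called in TPC1 and 1 of 8 in D11, BIRC5 (survivin), which also serves in mitosis, with a log2 fold change of -0.78 (SE 0.12, adjusted p = 0.00112, limma). In TPC1 BIRC5 was at -0.49, and it was called there without siDicer replicate 2 (-0.65). BIRC6 had log2 fold changes of 0.18 and 0.51 and DIABLO of 0.40 and 0.29, not called in either line. The NC minus NT difference was 0.29 in TPC1 and 0.52 in D11 for BIRC6, and 0.20 and -0.09 for DIABLO, not called. The list medians were 0.14 and 0.17. No gene was called in a list of death receptors, decoy receptors, ligands and intracellular partners. This was 0 of 11 in TPC1 and 0 of 10 in D11, with medians of 0.11 and 0.09. In D11 TNFRSF10B was at 0.43 and the decoy receptor TNFRSF10D at 0.54, below the fold minimum. CFLAR, which encodes an inhibitor of caspase 8, was at 0.37 there. For these genes NC exceeded NT in D11 by 0.24, 0.14 and 0.48, not called. TNFRSF10D was called in D11 with NT alone as control (0.61) and without NC replicate 1 (0.59), siDicer replicate 2 (0.63) or siDicer replicate 3 (0.61). Among genes of MCL1 and BIM turnover, 0 of 6 in TPC1 and 1 of 6 in D11 were called, with medians of 0.15 and 0.30. That gene was FBXW7, a ubiquitin ligase subunit that recognises MCL1, with a log2 fold change of 0.59 (SE 0.17, adjusted p = 0.0291, limma); its call lay at the fold minimum and was lost with NC alone as control (0.36, adjusted p = 0.154, limma) and without NT replicate 1, 2 or 3 (0.55, 0.56 and 0.52) or siDicer replicate 1 or 3 (0.42 and 0.66). USP9X, which removes ubiquitin from MCL1, and BTRC had D11 log2 fold changes of 0.32 and 0.35 and were not called. In D11 the NC libraries exceeded the NT libraries by 0.46 for FBXW7, by 0.31 for USP9X and by 0.55 for BTRC, none of them called. Of the transcription factors of BCL2 family genes, 0 of 10 were called in either line (medians -0.03 and 0.01). E2F1 had log2 fold changes of -0.32 and -0.56 and ATF4 of -0.23 and -0.37. The NC libraries already stood below the NT libraries for both genes. NC minus NT was -0.34 in TPC1 and -0.48 in D11 for E2F1, and -0.46 and -0.38 for ATF4, not called. In D11 E2F1 passed the p threshold (adjusted p = 0.0437, limma) and not the fold minimum, and it was called there with NT alone as control (-0.80) and without NC replicate 1, 2 or 3 (-0.60, -0.61 and -0.61) or siDicer replicate 2 (-0.73). In TPC1 it was called without siDicer replicate 2 (-0.60).

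**Figure D5:**
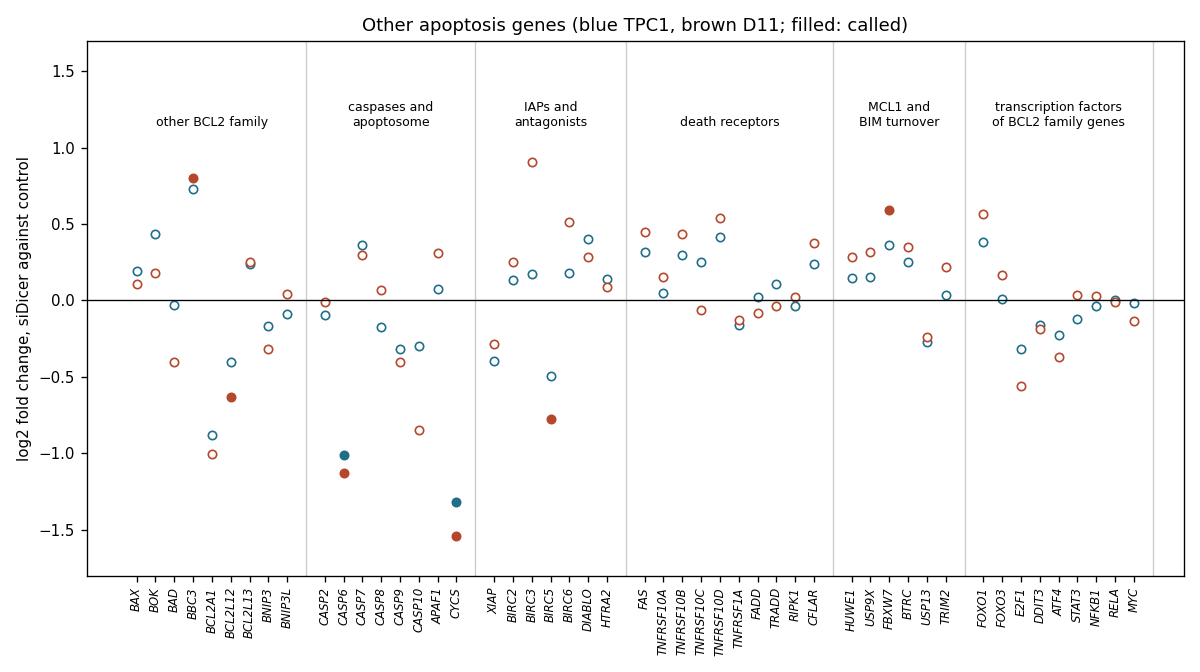
Log2 fold change, siDicer against control, of other apoptosis genes tested in both lines, by list, in TPC1 (blue) and D11 (brown), with filled points for genes that were called. CYCS and CASP6 lie below -1 in both lines, and BBC3 is the gene called higher in D11 at 0.80 among the other BCL2 family genes. The list labelled death receptors also holds decoy receptors and intracellular partners.

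Genes that hold an 8mer are given for comparison over all tested genes with a 3′ UTR, 13074 in TPC1 and 12995 in D11. For miR-29 the median log2 fold change was 0.08 in TPC1 and 0.10 in D11 with an 8mer and -0.05 and -0.06 with no match, and for the miR-221 family it was 0.05 and 0.08 with an 8mer and -0.04 and -0.05 with no match. For miR-34, the third family with an 8mer in BMF, the medians were 0.03 in both lines with an 8mer and -0.05 and -0.06 with no match. For miR-92/25, one of the families with an 8mer in BCL2L11 and MCL1, the medians were 0.06 and 0.13 with an 8mer and -0.04 and -0.05 with no match. With an 8mer they were 0.0007 and 0.05 for miR-181, 0.03 and 0.07 for miR-17 and 0.04 and 0.09 for miR-30, and with no match -0.04 in TPC1 and -0.06 in D11 for each of these families. They were 0.06 and 0.09 for miR-15/16, -0.001 and 0.03 for miR-21 and 0.02 and 0.03 for let-7. With no match these were -0.05 and -0.07, -0.03 and -0.05, and -0.04 and -0.05. The 8mer median was thus higher for all 10 families in both lines. These sets were not matched for UTR length, and the cause was not tested. Among the members, an 8mer and a low estimate occurred together as well: BID, with its miR-30 8mer, was at -0.15 in both lines.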

How the data were processed

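Stranded poly-A selected mRNA libraries were sequenced as paired-end reads. Per the submitters' processing notes and the methods, the authors mapped reads to GRCh38 with STAR 2.5.3a and counted them per gene of Ensembl with HTSeq 0.9.1. The authors scaled the reads of each gene to 20 M per library, so the deposited values are a normalised score rounded up to whole numbers and not read counts. Column totals were 20010707 to 20018484. The spacing of low values gave the value of 1 read. Whole reads came back for 99.7% to 99.9% of values in 16 libraries and only approximately in TPC1 siDicer replicates 1 and 3. Recovered reads entered an alternative test alone.

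Genes that reached 10 in 3 or more libraries of a comparison were fitted on log2(value + 1) with limma 3.58.1 (trend) in R 4.3.3, which understates changes of low genes, with Benjamini-Hochberg adjustment over all genes tested and a fold minimum of 1.5. edgeR, which the authors name, needs counts and was not used. The control group was NT with NC, the 2 lines were compared over their 12 control libraries with a term for transfection, and the interaction used all 18. The methods call the experiments independently repeated, but nothing ties single libraries to separate cultures, so p-values measure the spread between these libraries, which may in part be technical. Replicate libraries differed by more than sampling noise, so none was counted as a repeat. Same-numbered D11 libraries deviated from their group means together (9 of 9 correlations over 0.1, from 0.108 to 0.504). Differently numbered D11 libraries had correlations from -0.419 to 0.206, so the ranges overlapped. In TPC1 the ranges were 0.0994 to 0.542 and -0.526 to 0.195. The labels give a replicate number and no pairing. The main fits held no term for the number, which entered an alternative fit as a block.

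Genes named are the 10 members, DICER1, of each other list the 3 with the smallest adjusted p in the D11 siDicer comparison, and the 3 genes with a mean value of at least 100 most correlated with a member called in both lines. Some genes of the other lists are not reported here. Members outside the siDicer comparisons are given for BMF and for the smallest p-values. Members and lists were chosen with earlier results of these data known. Positions and 3′ UTRs are from GENCODE v44 (GRCh38). The limma script was tested on simulated data.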

Additional observations from a re-analysis of the deposited data

Results flagged for a closer look

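The level of each member and of DICER1 was checked for a library far from the rest in the 6 control libraries of each line. Of the 22 groups tested, 2 held such a library, and chance gives about 1 in 20. Both were in TPC1 NT replicate 2. BCL2L2 was at 1410 there, against 825 to 1037 in the other 5 TPC1 control libraries, and BAK1 was at 810, against 1170 to 1341 in the others. Without this library the siDicer log2 fold change in TPC1 went from -0.20 to -0.11 for BCL2L2 and from 0.12 to 0.02 for BAK1, and neither gene was called with or without it. No other member was apart from its group by the same measure.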

How the results depend on the processing

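The count of members called with siDicer was 1 in each line. It was 0 in TPC1 and 0 in D11 when genes needed a mean value of at least 100, since BMF then drops out. With NT alone as control it was 2 and 2 (BMF and BCL2L11), and with no fold minimum 2 in D11 (BMF and PMAIP1). Over all tested genes, NT alone as control also raised the share called in D11, above the 12% of the main fit. In TPC1 it lowered that share. The 2 of 10 members in D11 therefore stand beside a higher share of all genes, and do not set the family apart. With no fold minimum, 22.2% of all tested genes were called in D11, beside 2 of the 10 members. Leaving out libraries in turn gave 0 to 1 in TPC1, where the call was lost without siDicer replicate 3, and 1 to 1 in D11. No other alternative, among TMM and RLE scaling, no filter, pseudocounts of 0.1 and 10, the fit of 18 libraries and voom on recovered reads, changed the count, and in the other 4 comparisons no member was called under any alternative run. With the replicate block the counts were also 1 and 1, and the block changed the D11 calls given beside BCL2A1 and DICER1. In TPC1, 8 of 9 same-number correlations were over 0.1 (lowest 0.0994), and the block there called BCL2A1 (-0.878). Over all genes the block moved the calls of NC against NT from 20 to 565 in TPC1 and from 63 to 315 in D11, and of D11 against TPC1 from 191 to 385.

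BAK1 changed sign with NC alone as control (-0.00535 in TPC1, -0.00845 in D11) and ranged from -0.0961 to 0.241 in D11 as libraries were left out. BMF in TPC1 NC against NT ranged from -0.586 to 0.343. Over all members and comparisons, 95 of 1242 alternative estimates had the opposite sign, 63 of them in the interaction, and 0 were called. The causes were not tested. Depth limits BMF and BIK, and counting error alone is covered by the floors given.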
